A study of Mus musculus with 6 samples.

Results

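Transfer RNA genes of the mouse nuclear genome were followed through 6 small RNA libraries of hippocampus. The members were the rows of the deposited count table that carry the name of an amino acid (20 isotypes and SeC, selenocysteine), lie outside the mitochondrial genome and hold at least 60 counts over the 6 libraries; they were thus selected on their summed raw counts. Of 109108 rows in the table, 2861 were nuclear tRNA rows and 273 of these were members. The members held 637009 counts, 99.6% of all counts in nuclear tRNA rows, and 2372 of the 2588 rows under the minimum had 0 counts. Because the rule uses the summed counts, the number of members and their summed levels describe the choice and are given without a test, while the comparison between genotypes was not part of the rule. The sum covers both genotypes, so a row near the minimum can be a member through the genotype in which it is higher. The last rows inside the minimum were n-TAcgc10, n-TKctt9 and n-TCgca49 with 60 counts each, and the first outside were n-TRacg6 with 58, n-TFgaa6 with 57 and n-TTagt8 with 56.

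All mice were C57BL/6 males aged 3 months, homozygous for floxed Dicer1 alleles (Dicer1 flox/flox) and killed 3 weeks after tamoxifen. The Dicer1-ifKO mice also carried CaMKIIa-creERT2, an inducible recombinase under a promoter of forebrain excitatory neurons, and the WT mice did not. Each genotype gave 3 libraries, each from equal amounts of hippocampal total RNA of 3 pooled mice. RNA came from whole hippocampus, which also holds cells without that recombinase, so fewer cells of a type and less RNA per cell cannot be told apart.

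Transfer RNAs carry amino acids to the ribosome, and each reads codons through the 3 bases of its anticodon. Their genes are transcribed by RNA polymerase III as precursors with a 5′ leader and a 3′ trailer that RNase P and RNase Z (Elac2) remove, and some hold an intron that the Tsen endonuclease cuts out. Mature tRNAs and precursors are cut further, for example by angiogenin in the anticodon loop under stress, and fragments of tRNA-Glu, tRNA-Gly and tRNA-Val are common in small RNA libraries of many tissues. Dicer, the RNase III enzyme that cuts miRNA hairpins, has also been described as a source of some tRNA fragments. The libraries were made from short inserts, so the counts are read here as fragments. The table gives 1 count per row and does not say where in a tRNA a fragment lay.

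RefSeq names of nuclear tRNA genes give the amino acid in 1 letter and then the anticodon: n-TItat14 is a tRNA-Ile gene with the anticodon TAT. Of the 273 members, 260 matched a RefSeq tRNA gene by chromosome, start and end (GRCm38), and the other 13 are named here by amino acid and position. Sequences in the reference tables covered 8 members. The first shown is the member with the smallest p in the genotype comparison, which did not pass the test, with the miRNA hairpin that overlaps it; n-TStga1, n-TStga2 and n-TSaga9 show how alike gene copies can be; n-TVcac9 stands for the abundant tRNA-Val family. Anticodons are in capitals in the tRNA rows, the mature miRNA is in capitals in the hairpin, and the seed (bases 2 to 8) is in capitals in the mature miRNA.
n-TItat14 (chr13:21896938-21897031, minus strand): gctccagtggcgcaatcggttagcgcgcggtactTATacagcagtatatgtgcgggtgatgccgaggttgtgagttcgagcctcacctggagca
Mir1983 hairpin (chr13:21896918-21897049, minus strand): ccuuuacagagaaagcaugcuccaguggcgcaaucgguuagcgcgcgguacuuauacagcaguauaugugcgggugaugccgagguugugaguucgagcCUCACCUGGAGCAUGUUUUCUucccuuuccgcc
miR-1983 (chr13:21896930-21896950, minus strand): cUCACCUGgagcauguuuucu
n-TStga1 (chr13:23518146-23518227, plus strand): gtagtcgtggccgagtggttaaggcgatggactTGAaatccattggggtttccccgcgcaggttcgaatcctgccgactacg
n-TStga2 (chr13:21924935-21925016, minus strand): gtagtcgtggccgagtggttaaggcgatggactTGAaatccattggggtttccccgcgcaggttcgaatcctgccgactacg
n-TSaga9 (chr4:10874064-10874145, plus strand): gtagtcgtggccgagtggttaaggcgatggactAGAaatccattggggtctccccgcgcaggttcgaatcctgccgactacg
n-TVcac9 (chr13:23446142-23446214, minus strand): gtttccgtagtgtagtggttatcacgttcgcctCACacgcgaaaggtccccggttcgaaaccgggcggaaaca
The hairpin and miRNA are from RefSeq, n-TVcac9 is from the RefSeq promoter window of Gm46404, and the others are from GENCODE M21 transcripts, all on GRCm38.

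The libraries had feature counts that summed to 55101387 to 77428956, a sum to which overlapping features each add their own counts, and the members held 84980 to 117733 counts. Neuronal miR-124-3p stood at 97.6 to 138 CPM (counts scaled to the library total, with TMM factors over all tested features). It overlapped between genotypes, as did miR-9-5p, miR-138-5p, miR-132-3p, miR-137-3p and miR-153-3p. Neuronal miR-128-3p was lower in Dicer1-ifKO without overlap in both its rows. On chromosome 1 it had 753 to 891 CPM in WT and 572 to 647 in Dicer1-ifKO. On chromosome 9 it had 630 to 785 CPM in WT and 462 to 520 in Dicer1-ifKO. Astrocyte miR-26a-5p was also lower without overlap in both rows. Its row on chromosome 9 had 3230 to 3974 CPM in WT and 2469 to 2807 in Dicer1-ifKO. Leukocyte miR-150-5p stood higher without overlap, at 126 to 158 CPM in WT and 164 to 180 in Dicer1-ifKO. So did miR-142-3p, at 0.15 to 0.33 and 0.36 to 0.82 CPM. The other listed markers of oligodendrocytes, astrocytes, leukocytes, erythrocytes and vessels overlapped. The cause was not tested. Of the 5 miRNAs listed as absent from hippocampus, liver miR-122-5p and muscle miR-206-3p had 2 counts each over the 6 libraries, and the 2 rows of muscle miR-1a-3p had 7 and 16. The other two were present: muscle miR-133a-3p at 2.07 to 3.51 CPM and endocrine miR-375-3p at 10.8 to 16.4 CPM. Their part in the results was not tested. The Dicer1 transcript row, a whole gene span whose few short-insert counts do not test the deletion, had 45, 33 and 47 counts in WT and 37, 32 and 35 in Dicer1-ifKO. Of 547 miRNA rows tested, 36 were lower in Dicer1-ifKO with an adjusted p under 0.05 (edgeR quasi-likelihood test). WT replicate 1 stood apart: mitochondrial tRNA rows made up 1.53% of its short RNA counts against 0.590% to 0.912% in the others, and rRNA rows 6.00% against 2.61% to 3.85%.

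Nuclear tRNA members took 0.152% ± 0.034 of the summed counts in WT (SD, n = 3) and 0.168% ± 0.024 in Dicer1-ifKO. The libraries were at 0.175%, 0.114% and 0.168% in WT and at 0.196%, 0.152% and 0.155% in Dicer1-ifKO. WT replicate 2 was lowest and Dicer1-ifKO replicate 1 highest, and the groups overlapped. The ratio of means, 1.10, became 0.978 without WT replicate 2 and 1.01 without Dicer1-ifKO replicate 1. Of short RNA counts alone the members took 0.766% ± 0.156 in WT and 0.858% ± 0.104 in Dicer1-ifKO, again with overlap.

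Among isotypes, tRNA-Glu, tRNA-Gly and tRNA-Val held 46.0%, 21.04% and 12.1% of the member counts, 79.2% together. As a level per length, tRNA-Glu stood at 13898 ± 3149 CPM per kilobase in WT and 14813 ± 1704 in Dicer1-ifKO, tRNA-Gly at 6592 ± 774 and 6735 ± 1104, and tRNA-Val at 3428 ± 700 and 4011 ± 196 (SD, n = 3 libraries each). The order went on with Lys, Gln, Leu, Asp, Ser, Met, His, Pro, Ala, Asn, Arg, Ile, SeC, Thr, Cys, Trp, Tyr and Phe. Phe, the last, stood at 11.3 ± 1.9 CPM per kilobase in WT and 13.9 ± 1.0 in Dicer1-ifKO. Of the 20 pairs of neighbours in this order, 8 had library ranges that did not overlap: Glu and Gly, Gly and Val, Val and Lys, Gln and Leu, Leu and Asp, SeC and Thr, Cys and Trp, and Tyr and Phe. The other 12 pairs, including the whole run from Asp to SeC, had ranges that overlapped between neighbours. A range over libraries does not compare isotypes within a library. Within each library Ser stood above Met and Met above His, while the order of the other overlapping pairs was not the same in every library.

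**Figure D1:**
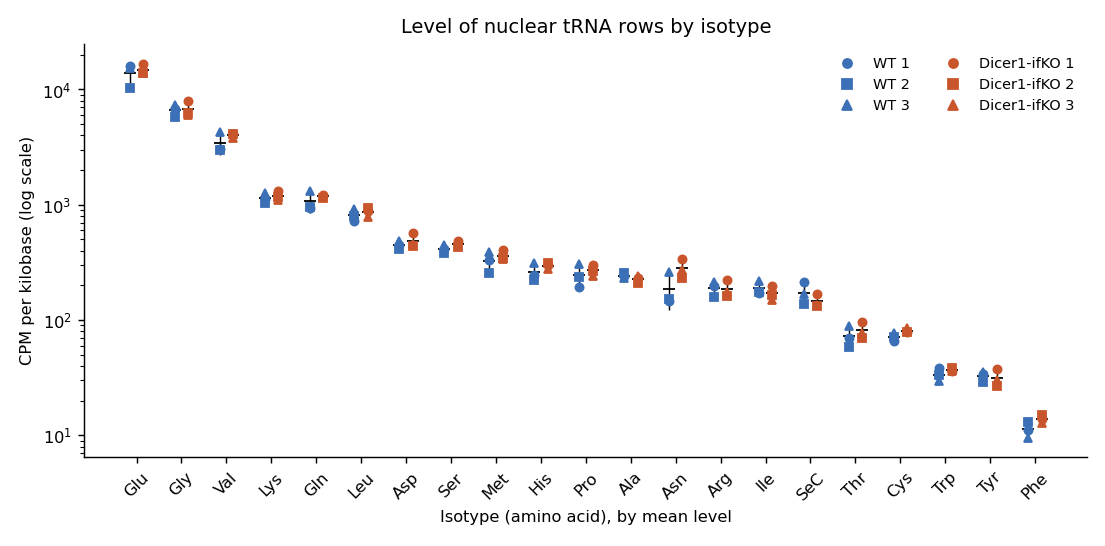
Level of each isotype in CPM per kilobase (log scale), with 1 point per library, a bar at the group mean and lines of 1 SD. Glu, Gly and Val lie above every other isotype in all 6 libraries, and the WT and Dicer1-ifKO points of most isotypes interleave.

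The number of gene copies did not order the isotypes closely. Across 20 isotypes, all measured in the same libraries, the log10 counts and the number of RefSeq genes listed had a Pearson's r of 0.21 and the ranks a Spearman's rho of 0.43, given as a description. Cysteine has 57 listed RefSeq genes, of which 9 were members with 1555 counts, and alanine 33, of which 6 were members. All 16 listed RefSeq tRNA-Met genes and 24 of 25 tRNA-Leu genes were members. Over all isotypes, 64.5% of the listed RefSeq genes were members, against 0.53% of the 2458 rows with no RefSeq gene.

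Anticodon families and single rows divided the counts of an isotype unevenly in the most abundant isotypes. Glu-CTC, the family of tRNA-Glu genes with anticodon CTC, held 250267 counts in 10 rows, and 9 of these rows lay between 26858 and 31100 counts on 5 chromosomes while the other, n-TEctc4 in an intron of Hdgfl2, had 249. Glu-TTC held 42610 counts in 8 rows of 88 to 7855. Gly-GCC held 114673 counts in 13 rows, 10 of them between 9480 and 11642 and 3, n-TGgcc12, n-TGgcc13 and n-TGgcc14, between 2058 and 2176. The 7 rows of Gly-TCC lay between 1152 and 1215. In Val-CAC, n-TVcac6 (chr1:171111443-171111515) alone had 20163 of 59118 counts, and n-TVcac9, printed above, had 9080.

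Reads that lie within identical copies cannot be assigned to separate genes, which the sequences at hand show for 1 pair. The printed n-TStga1 and n-TStga2 are the same over all 82 bases, so a read within these bases cannot be told from a read of the other copy. Leader and trailer bases outside the rows were not compared. n-TStga1 had 115 counts and n-TStga2 had 116. Their libraries nevertheless differed: n-TStga1 had 11, 17 and 17 counts in WT and 21, 17 and 32 in Dicer1-ifKO, and n-TStga2 had 22, 20 and 12 in WT and 19, 27 and 16 in Dicer1-ifKO. The log2 difference was 0.66 ± 0.32 (SE) for one and 0.21 ± 0.29 for the other. n-TSaga9, with 115 counts, differs from both in 2 of 82 bases, 1 of them in the anticodon. n-TSgct5, a tRNA-Ser gene with another anticodon and 154 counts, shared 61 of 82 bases with n-TStga1.
n-TSgct5 (chr13:22050686-22050767, minus strand): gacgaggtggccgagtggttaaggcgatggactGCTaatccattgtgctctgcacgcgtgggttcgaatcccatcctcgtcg
How reads with several placements were counted is not given in the sources used here, so genotype results are also given for sums over an isotype or anticodon.

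**Figure D2:**
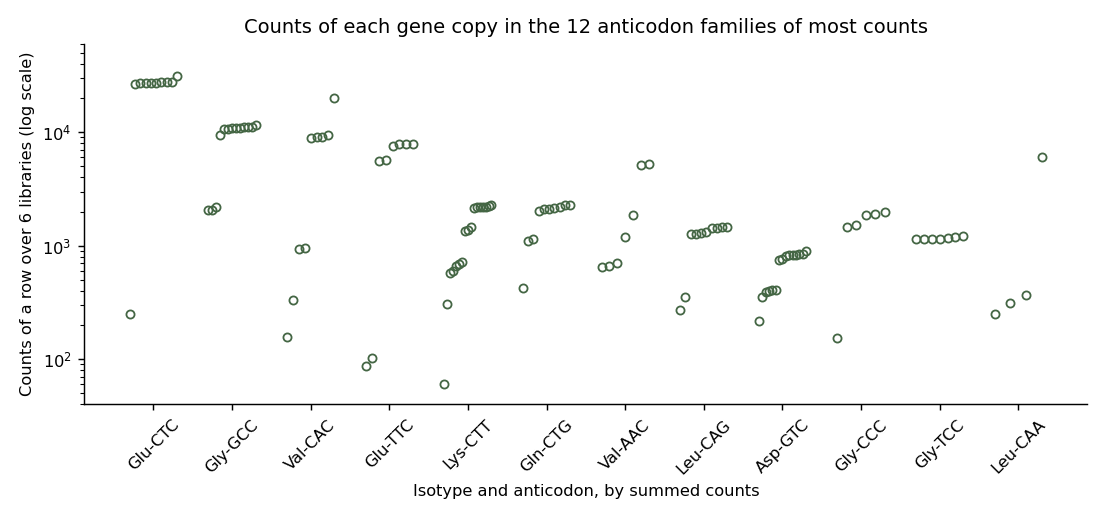
Counts of each gene copy summed over 6 libraries (log scale) in the 12 anticodon families of most counts, with copies of a family ordered by their counts. Glu-CTC, Gly-GCC and Gly-TCC form flat runs of near-equal copies, while Leu-CAA and Val-CAC have 1 copy above the rest (n-TLcaa3 with 6087 and n-TVcac6 with 20163).

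In several other isotypes 1 row stood out. n-TAtgc10 (chr5:125404250-125404321) held 88.4% of the tRNA-Ala counts, n-TNgtt9 (chr2:18587044-18587117) 61.8% of tRNA-Asn, n-TTcgt3 (chr11:79704650-79704721) 61.3% of tRNA-Thr, and n-TLcaa3 (chr11:58302474-58302580), whose 107 bases include an intron as Leu-CAA genes do, 28.4% of tRNA-Leu. Selenocysteine tRNA, which decodes UGA in selenoprotein mRNAs, had 1 member, at chr7:19301244-19301329, with 3884 counts. tRNA-Arg was spread thinly over 17 rows, of which the highest, n-TRcct4, had 426 counts. n-TRtct5 is a tRNA-Arg gene also known as n-Tr20 and described as expressed in the nervous system. It lies in an intron of Aim2 (chr1:173390329-173390402) and had 13, 20 and 41 counts in WT and 25, 32 and 26 in Dicer1-ifKO. Its level of 0.52 ± 0.32 CPM in WT and 0.59 ± 0.03 in Dicer1-ifKO overlapped between groups, and 2 other Arg-TCT members had 94 and 246 counts.

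The members were unevenly placed. Joined at gaps of up to 500 kb, they formed 99 groups, 74 of them a single row, and 5 groups of at least 10 rows held 132 rows and 55.9% of the member counts. The largest by counts, chr1:171033942-171111515 near Fcgr3, had 25 rows and 26.0% of the counts, mostly in Glu-CTC, Gly-GCC and n-TVcac6. The 2 groups on chromosome 13, in the region of the histone genes, had 39 and 28 rows. The median log2 difference between genotypes of these 5 groups ran from 0.04 on chromosome 11 to 0.14 on chromosome 3. Of all members, 23 lay in a protein-coding gene, 20 in an intron and 3 touching an exon.

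The genotype comparison asks whether loss of Dicer1 in forebrain neurons went with other amounts of tRNA fragments in hippocampus. No nuclear tRNA row passed the test: of 272 rows tested, 0 had an adjusted p under 0.05 (edgeR quasi-likelihood test, Benjamini-Hochberg over all features), where 0.811% of all 6539 tested features did, 0.795% lower and 0.0153% higher. DESeq2 also called 0, with no adjusted p for 31 rows. At an unadjusted p under 0.05, edgeR gave 9 rows (2 lower and 7 higher in Dicer1-ifKO), 3.31% of those tested against 7.81% of all features, and DESeq2 gave 4. Without WT replicate 3, edgeR gave 49, of which 48 were higher, and without WT replicate 2 it gave 7, of which 0 were higher. The 7.81% belongs to the edgeR fit of all libraries. The share of all features is not given for DESeq2 or for the fits with a library left out. Those counts therefore have no background beside them.

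The rows nonetheless sat slightly above 0. The log2 difference, Dicer1-ifKO minus WT, ran from −0.63 to 0.93 with a median of 0.09 against −0.05 over all tested features, and 194 rows were above 0 and 78 below. That share, 71.3% against 43.2% of all features, moved with the scaling and the libraries: it was 55.9% when the libraries were scaled by the tRNA rows themselves, 55.7% without Dicer1-ifKO replicate 1, 56.4% without WT replicate 2 and 85.7% without WT replicate 3. The SE of a single row had a median of 0.22, which does not measure the uncertainty of a median over rows. Rows of near-identical copies may share reads, so the rows need not be independent measurements. Libraries did not overlap between genotypes in 8 rows lower in Dicer1-ifKO (2.94%, where 9.27% of all features did) and in 11 rows higher (4.04%, where 3.73% did).

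**Figure D3:**
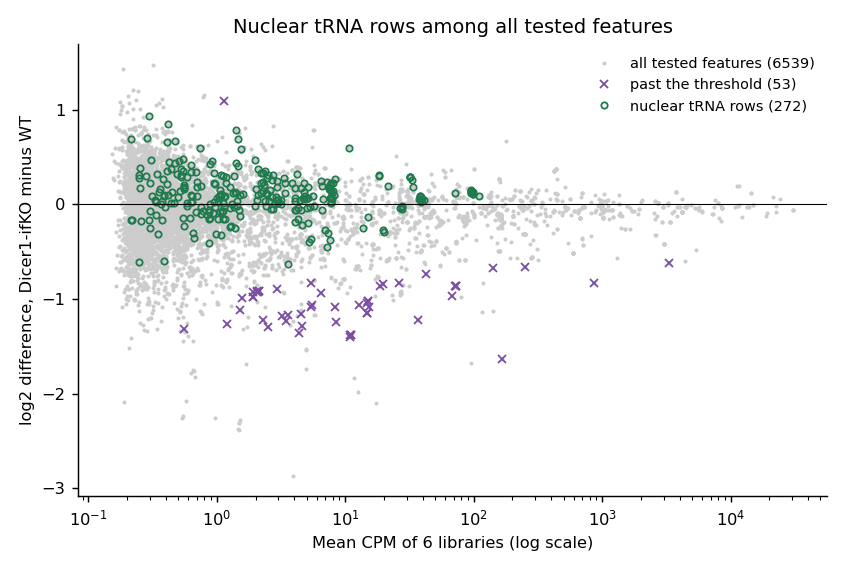
Log2 difference against mean CPM (log scale) for all 6539 tested features, the 53 past the threshold (crosses) and the 272 tested nuclear tRNA rows (open circles). The tRNA rows lie between −0.63 and 0.93, and none coincides with a cross.

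The isotype sums gave the same count of calls. Of 21 sums, 0 passed (0.652% of the 6288 features of that fit did), 17 were above 0, and 1, tRNA-Asn, had an unadjusted p under 0.05. DESeq2 also called 0, with 1 at an unadjusted p under 0.05. In edgeR's fit of single rows, 7.81% of all features were under that value, and the share is not given for the isotype fit. tRNA-Glu had log2 0.12 ± 0.18 (SE), tRNA-Gly 0.06 ± 0.16 and tRNA-Val 0.26 ± 0.17, each short of the threshold (adjusted p of 0.98, 0.98 and 0.88). The shares of member counts were 45.8% ± 4.4 in WT and 45.9% ± 0.7 in Dicer1-ifKO for Glu, 21.7% ± 1.1 and 20.5% ± 1.2 for Gly, and 11.6% ± 1.5 and 12.7% ± 1.0 for Val. tRNA-Cys was the 1 sum whose libraries did not overlap (3.72% of features were higher without overlap and 9.51% lower). It stood at 4.72, 5.13 and 5.52 CPM in WT and at 5.64, 5.64 and 6.16 in Dicer1-ifKO, log2 0.22 ± 0.17, adjusted p = 0.92. The sums below 0 were SeC (−0.21 ± 0.19), Ile (−0.14 ± 0.18), Ala (−0.07 ± 0.16) and Tyr (−0.03 ± 0.19).

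**Figure D4:**
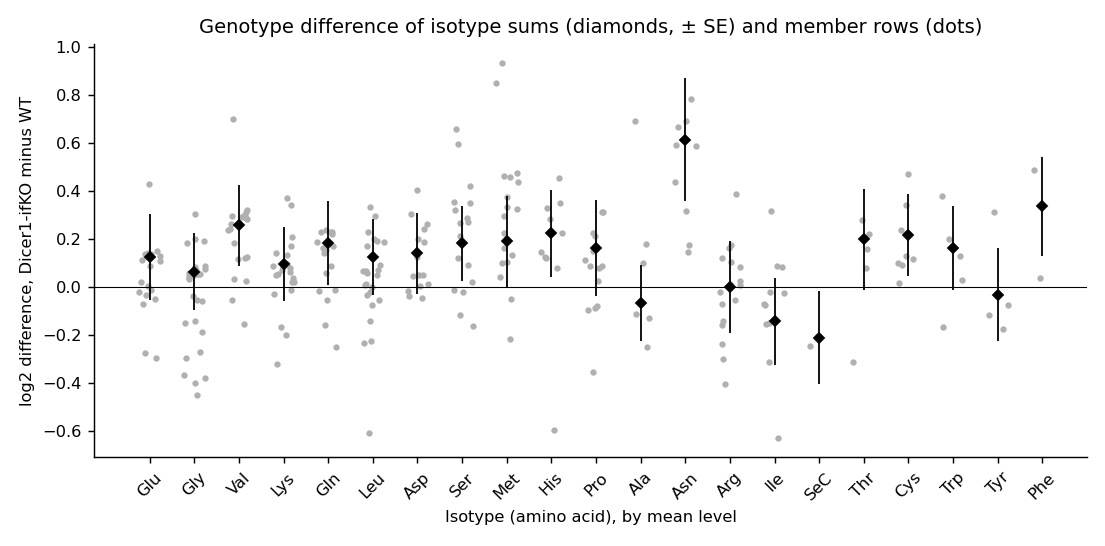
Log2 difference, Dicer1-ifKO minus WT, of each isotype sum (diamonds, lines of 1 SE) and of its member rows (dots, spread sideways). tRNA-Asn has the highest sum, 0.61, with its 9 rows all above 0, and n-TItat14 the lowest row, −0.63.

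tRNA-Asn had the largest difference among the sums and also the largest spread within a group. Its levels were 10.9, 11.3 and 19.3 CPM in WT and 25.3, 17.1 and 19.97 in Dicer1-ifKO, 13.9 ± 4.7 against 20.8 ± 4.1. WT replicates 1 and 2 were low, while WT replicate 3 lay above Dicer1-ifKO replicate 2, so the groups overlapped. The log2 difference was 0.61 ± 0.25, with an unadjusted p of 0.036 and an adjusted p of 0.59 in edgeR's quasi-likelihood test. All 9 rows were above 0, from 0.15 for n-TNgtt8 to 0.78 for n-TNgtt11, which lies in an intron of BC107364. n-TNgtt9, the row with most of the counts, had 318, 346 and 550 counts in WT and 622, 574 and 599 in Dicer1-ifKO (log2 0.59 ± 0.23, adjusted p = 0.48, and 0.085 to 0.90 over the alternatives). The coefficient of variation of the tRNA-Asn level in WT was 34.3%, ahead of tRNA-Pro with 23.7% and tRNA-Glu with 22.7%.

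By anticodon, 0 of 52 sums passed (0.807% of 6319 features did), by edgeR and by DESeq2, and 2 had an unadjusted p under 0.05 by each tool. By edgeR these were Ile-TAT and Asn-GTT. In edgeR's fit of single rows, 7.81% of all features had an unadjusted p under 0.05. That share is not given for the fits of sums. The sums whose libraries did not overlap were Leu-CAA, Ser-GCT and Cys-GCA, higher in Dicer1-ifKO (3.73% of features were), and Ile-TAT, lower (9.48% were). Ser-GCT stood at 15.9, 15.1 and 17.1 CPM in WT and at 19.3, 18.3 and 18.6 in Dicer1-ifKO (log2 0.22 ± 0.15, adjusted p = 0.84), and its most counted row, n-TSgct3, at 7.59 ± 0.50 against 9.15 ± 0.16 CPM. Leu-CAA stood at 23.4 ± 1.4 CPM in WT and 26.1 ± 1.6 in Dicer1-ifKO (log2 0.16 ± 0.15). The anticodon families of tRNA-Glu leaned to different sides of 0, with Glu-CTC at 0.12 ± 0.19 and all 10 rows above 0, and Glu-TTC at −0.10 ± 0.15 and 7 of 8 rows below. The difference between these families was not tested, and both are within their SE of 0. Glu-CTC stood at 1001, 608 and 927 CPM in WT and at 1054, 858 and 851 in Dicer1-ifKO, with WT replicate 2 the lowest. Without WT replicate 2 the whole tRNA-Glu sum turned to −0.059. Rows of near-identical copies may share reads, so the rows of a family need not be independent measurements.

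n-TItat14 was the member with the smallest p. It had 193, 213 and 213 counts in WT and 123, 140 and 131 in Dicer1-ifKO, 4.33 ± 0.34 against 2.80 ± 0.17 CPM (SD, n = 3). All 3 Dicer1-ifKO libraries lay below all 3 WT libraries. The log2 difference was −0.63 ± 0.17, with an unadjusted p of 0.0025 and an adjusted p of 0.14 in edgeR's quasi-likelihood test. Over the alternatives the log2 difference ran from −0.71 to −0.54 and the adjusted p from 0.045 to 0.90, and it passed the threshold when WT replicate 1 was left out.

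The row overlaps that of miR-1983, whose counts were 93.0% as many. This miRNA is known as a product of the tRNA-Ile precursor in an alternative hairpin fold, and has been described as Dicer-dependent in mouse embryonic stem cells. In the printed hairpin of 132 bases, the tRNA row covers bases 19 to 112 and the mature miRNA bases 100 to 120, so the miRNA shares its first 13 bases with the 3′ end of the tRNA and runs 8 bases into the trailer. The miR-1983 row had 178, 203 and 203 counts in WT and 113, 128 and 117 in Dicer1-ifKO. Its log2 difference was −0.68 ± 0.17, with an adjusted p of 0.11. The table does not show whether the same reads were counted in both rows. The count of the tRNA row exceeded that of the miRNA row by 15, 10 and 10 in WT and 10, 12 and 14 in Dicer1-ifKO, with no order between the groups.

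The other 10 tRNA-Ile members carry the anticodon AAT and had 485, 463 and 594 counts in WT and 518, 548 and 423 in Dicer1-ifKO. Their levels, 10.8 ± 1.7 and 10.6 ± 1.8 CPM, overlapped, and 3 of the 10 rows were above 0. The tRNA-Ile sum was at −0.14 ± 0.18 with all counts. With the miR-1983 counts subtracted, it had 11.04 ± 1.7 CPM in WT and 10.9 ± 1.7 in Dicer1-ifKO, a log2 ratio of means of −0.02. The subtraction takes the same reads to be counted in both rows, which was not tested. No other member overlapped another row of up to 400 bases.

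**Figure D5:**
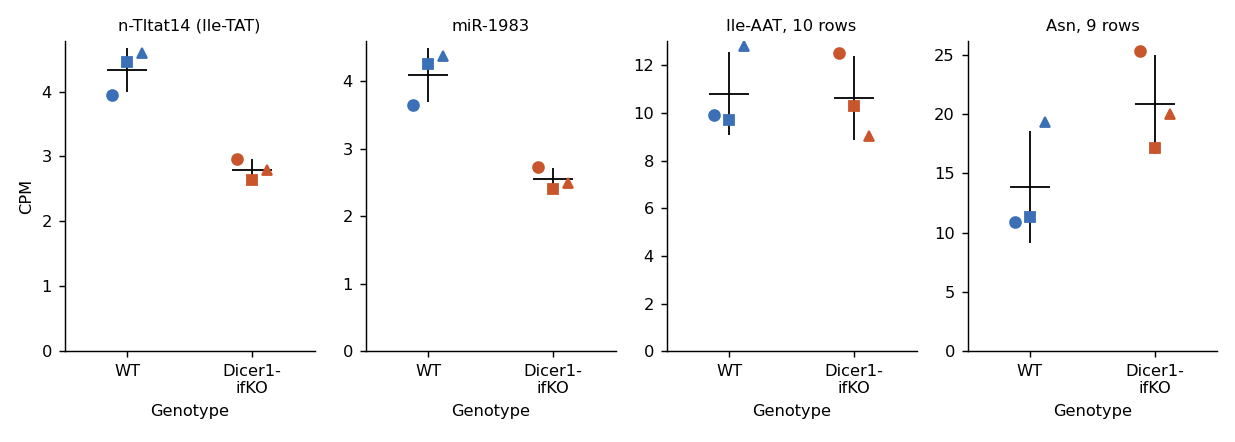
Levels in CPM per library (circles, squares and triangles are replicates 1, 2 and 3) with the mean and 1 SD, for n-TItat14, miR-1983, the 10 Ile-AAT rows and the 9 tRNA-Asn rows. The groups do not overlap for n-TItat14 and miR-1983 and overlap for Ile-AAT and tRNA-Asn.

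Among the rows with the next smallest p-values, a tRNA-Met row at chr19:61320836-61320908 had 9, 7 and 13 counts in WT and 17, 18 and 20 in Dicer1-ifKO (log2 0.93 ± 0.32, adjusted p = 0.31). It was 1 of 5 members with the smallest p, with n-TItat14, n-TNgtt11, n-TMcat14 (0.85 ± 0.33, adjusted p = 0.46) and n-TNgtt9. n-TMcat6 had 69, 77 and 91 counts in WT and 100, 125 and 101 in Dicer1-ifKO, without overlap in CPM. On the lower side, n-TEttc4, in an intron of Elf1, stood at 22.9, 19.1 and 24.0 CPM in WT and at 18.6, 18.4 and 16.8 in Dicer1-ifKO (log2 −0.29 ± 0.16, adjusted p = 0.76). The Gly-CCC rows n-TGccc1, n-TGccc5 and n-TGccc6 also did not overlap, at log2 −0.37, −0.40 and −0.27. These are 3 of 6 Gly-CCC rows, of which 2 were above 0, and the family sum overlapped between groups (log2 −0.14 ± 0.15, adjusted p = 0.93).

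Several members followed single libraries. Of the 124 members with at least 600 counts, WT replicate 2 was lowest in 63 and Dicer1-ifKO replicate 1 highest in 56. In n-TEctc9, the row with the most counts (chr10:30811140-30811211), WT replicate 2 had 3578 counts against 4967 to 6364 elsewhere, and the log2 difference of 0.09 ± 0.19 became −0.10 without it. WT replicate 1 was at least 1.5 times every other library in CPM in 4 of these rows: n-TGgcc12, n-TGgcc13, n-TGgcc14 and n-TMcat16. n-TGgcc12, in the chromosome 1 group, had 665 counts there against 259 to 329 elsewhere, while the other 10 Gly-GCC rows showed no such excess. n-TMcat16 had 372 counts there against 124 to 247, and its log2 difference of −0.22 ± 0.35 became 0.23 without that library. The part of the mitochondrial tRNA and rRNA content of WT replicate 1 in these values was not tested.

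The 22 mitochondrial tRNA rows, the most similar set in the table, also had 0 calls and 0 rows at an unadjusted p under 0.05, with a median of 0.12 and 14 above 0. Of 55 genes listed for tRNA transcription, processing, modification and cleavage, 51 had a row and 6 had enough counts to be tested, with 0 passing in either direction and a median of −0.26. These rows are gene spans in a small RNA library and do not measure mRNA. Alkbh1, a tRNA demethylase gene, had 264, 215 and 346 counts in WT and 230, 208 and 198 in Dicer1-ifKO (log2 −0.34 ± 0.22), and Dgcr8, which binds miRNA hairpins for Drosha, 56, 52 and 36 against 29, 43 and 41 (−0.33 ± 0.22).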

How the data were processed

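Small RNA of 6 hippocampal libraries (3 WT, 3 Dicer1-ifKO, each a pool of 3 mice) was counted by the submitters. The authors deposited raw counts, whole numbers for each feature, and the normalized column is a signal equal to the deposited raw counts times 1 constant per library, used here only to recover that constant. DESeq2, BWA, CASAVA 1.8.2, SAMtools 0.1.18 and the build GRCm38 (mm10) appear in the submitters' processing notes with no role stated. How reads were counted, on which strand and at how many placements is not given in the sources used here. While 3 pools of 3 make 9 mice per genotype, the series text gives 12. A p-value here rests on the spread between pooled libraries.

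Rows of 1 gene with identical counts entered once, which removed 13139. edgeR 4.0.16 in R 4.3.3 was used (filterByExpr by group, minimum count 10, TMM, glmQLFit with robust estimation, glmQLFTest, two-sided, Benjamini-Hochberg over all tested features, threshold 0.05), after a test on simulated data. SE was derived from F. Sums per isotype or anticodon replaced the member rows in fits of their own. Anticodons came from RefSeq symbols, a choice made after the files were seen, since no genome sequence was used. Members and lists were chosen with earlier results of these data known. Named were every isotype sum, the most counted row of each isotype, the 5 rows of smallest p (under 5 passed the test), 3 rows either side of the minimum, the 3 isotypes of largest spread, the most counted processing genes and Dicer1; the other named rows were chosen after their values were seen. Alternatives were DESeq2 1.42.0, other scalings and filters, short RNA rows alone, a replicate block, a minimum of 600 counts, and each library left out. No molecular identifiers are mentioned, so counts need not be single molecules.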

Additional observations from a re-analysis of the deposited data

How the results depend on the processing

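The count of nuclear tRNA rows past the threshold was 0 in every setting run except without WT replicate 1, where it was 1 (n-TItat14), a range of 0 to 1 when libraries were left out. The counts for isotype and anticodon sums were 0 in every setting run, among them sums from rows of at least 600 counts (16 isotypes, 2 with an unadjusted p under 0.05). The share of all features at that unadjusted p is not given for this last fit. Leaving out WT replicate 2 brought the features called in the table from 53 to 16, and leaving out Dicer1-ifKO replicate 2 to 1; leaving out WT replicate 1 brought them to 143. The median log2 difference of the members stayed above 0, from 0.03 to 0.23, beside a median of all features from −0.12 to 0.05. The SE of the log2 difference, 0.16 to 0.25 for isotype sums and 0.15 to 0.50 for anticodon sums, limits what 3 libraries a genotype can show.

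Scaling by the nuclear tRNA rows turned Arg to −0.11, Gly to −0.048, Lys to −0.013, n-TGgcc4 to −0.033, n-TDgtc16 to −0.038 and n-TWcca7 to −0.024, and scaling by the snoRNA rows, added after the data were seen, turned Arg to −0.015; the cause was not tested. With libraries left out in turn, the log2 difference ran from −0.19 to 0.12 for Arg, −0.020 to 0.22 for Asp, −0.059 to 0.23 for Glu, −0.12 to 0.16 for Gly, −0.021 to 0.20 for Lys and −0.22 to 0.076 for Tyr. It ran from −0.10 to 0.25 for n-TEctc9, −0.13 to 0.15 for n-TGgcc4, −0.0093 to 0.22 for n-TKctt10, −0.50 to 0.23 for n-TMcat16, −0.11 to 0.17 for n-TDgtc16, −0.045 to 0.34 for n-THgtg4, −0.039 to 0.41 for n-TRcct4 and −0.12 to 0.25 for n-TWcca7. The other 15 isotype sums and 16 named rows kept their direction in every setting run. The authors' size factors, the anticodons from RefSeq symbols and the Ile sum without miR-1983 were also added after the data were seen. Members do not overlap each other, so counting overlapping members once leaves the isotype shares of the member counts as they are. The shares of all summed counts and of short RNA counts also rest on other rows, which can overlap. Those shares were not recomputed with overlaps counted once.

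Deviations of same-numbered libraries correlated at −0.23, 0.17 and −0.24. Those of differently numbered libraries ran from −0.18 (WT replicate 2 and Dicer1-ifKO replicate 3) to 0.31 (WT replicate 3 and Dicer1-ifKO replicate 1). These few correlations cannot show whether libraries of the same number were handled as pairs. With the replicate number as a block, 0 rows passed and 8 had an unadjusted p under 0.05, and the features called in the table were 6 in place of 53. The share of all features at that unadjusted p is not given for the block fit.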

Other observations

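Rows that the tRNA annotation calls Pseudo were left out of the members. One of them, at chr5:36301574-36301644 on the plus strand, passed the test, with 111, 127 and 125 counts in WT and 52, 68 and 62 in Dicer1-ifKO (log2 −0.98 ± 0.18, adjusted p = 0.023, edgeR's quasi-likelihood test). The row of miR-7689-3p, at chr5:36301606-36301628 inside it, had the same count in each of the 6 libraries, 545 in all. Of the 9 Pseudo rows with at least 60 counts, the one with the most, at chr6:100471530-100471602, had 421, 195 and 467 counts in WT and 375, 287 and 222 in Dicer1-ifKO (log2 −0.25 ± 0.39, adjusted p = 0.98), with overlap between groups.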
